A study of Mus musculus with 19 samples.

Results

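Skin with high expression of hair follicle genes was compared with skin in which those genes stood low, over 13 of the 16 mice of the series (15 of its 19 libraries). The arms were chosen by measured values, the RNA levels of hair follicle genes in these same libraries. Mice with much hair keratin RNA form the high-hair arm, with 6 mice: healthy mice 10, 13, 14 and 15, tumour-bearing mouse 3 and vismodegib-treated mouse 6. The low-hair arm holds 7 mice: healthy mouse 16, tumour-bearing mice 4, 5 and 8, and vismodegib-treated mice 1, 9 and 12. The libraries of mouse 12 and of mouse 16, a pair each, were summed per mouse. Mice treated with a laser were left out.

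All mice were females with the alleles Ptch1+/-, K14-CreER2 and p53fl/fl. The strain lacks 1 copy of the Hedgehog receptor gene Ptch1 and loses the floxed p53 gene where tamoxifen activates a Cre recombinase driven by the keratin 14 promoter. Healthy mice carried the same alleles and were not induced. The other groups had 3 tamoxifen injections of 300 µg and an x-ray dose of 4 Gy, after which early basal cell carcinomas (BCC) form. The BCC group had no further treatment and the vismodegib group had 8 applications of this inhibitor of the Hedgehog signal transducer Smoothened. All pieces of skin carry the label day 4, and no vehicle-treated mice are among the samples used. Trp53 was at 95.1 to 142 CPM (counts-per-million of the scaled library size) in the 5 healthy mice and at 24.1 to 54.2 in the 8 induced mice. Ages were 128 to 319 days (median 132.5) in the high-hair and 128 to 326 days (median 278) in the low-hair arm, because 4 of the 5 healthy mice stood in the former. Within the groups the ages overlapped: mouse 3 was 319 days old against 278 to 320 in the other BCC mice, and mouse 6 was 283 days old against 268 to 326 in the other vismodegib mice. The time since induction did not overlap in BCC skin, with 130 days in mouse 3 against 137 to 144 in the other mice. In vismodegib skin it was 135 days in mouse 6 against 109 to 137. Library totals lay between 27185900 and 33556600 counts. The TMM scaling factor of mouse 9 was 0.621, and those of the other mice lay between 0.946 and 1.16.

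Hair follicles pass through growth, regression and rest. In growth, matrix cells at the base of the follicle divide under Wnt signals, and factors such as Lef1, Foxn1, Msx2 and Hoxc13 drive the keratins of the hair shaft and its sheath, while melanocytes in the bulb make pigment. At rest the shaft genes are silent, and stem cells wait in the bulge. In mice the fat layer of the dermis is known to be thick in the growth phase and thin at rest.

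The arms were checked against 3 markers of growing follicles. Foxn1, a transcription factor of hair differentiation, had a lowest value of 29.3, a median of 51.9 and a highest of 86.1 CPM in the high-hair mice, and 4.51, 13.4 and 34.9 in the low-hair mice. The arms overlapped, since low-hair mouse 1 (34.9) stood above high-hair mouse 15 (29.3). Msx2, a factor of the hair matrix, was at 28.6, 95.6 and 117 CPM against 2.99, 5.86 and 29.9. Mlana, a melanocyte protein, was at 4.74, 25.3 and 45.5 CPM against 0.0655, 0.618 and 5.17. In both genes the overlap came from a single pair of healthy mice, the lowest high-hair mouse 15 and the highest low-hair mouse 16. These levels are descriptions, because the hair programme chose the arms.

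Healthy mice 15 and 16 also went against the names growing and resting in Shh, the Hedgehog ligand that follicle matrix cells make. Shh was at 11.5 to 16.8 CPM in the high-hair mice other than mouse 15, which had 1.35. It was at 0 to 4.12 CPM in the low-hair mice other than mouse 16, which had 14.5. The libraries labelled mouse 16 carry different ages, and whether they come from 1 animal was not tested. The library labelled 128 days had 26.8 CPM of Shh, 53.7 of Msx2 and 1220 of the sheath keratin Krt71. The library labelled 135 days had 0.9 CPM of Shh, 3.54 of Msx2 and 5.34 of Krt71. A smaller gap separated the libraries of mouse 12, with 7.92 and 0.346 CPM of Shh and 67.9 and 1.73 of Krt71. The arms are therefore called high-hair and low-hair below. Mice 15 and 16 are the pair nearest to the threshold: the mean log2 CPM of the hair keratins was 6.07 in mouse 15 and 2.54 in mouse 16, against 7.54 to 8.82 and -0.89 to 1.73 in the others.

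**Figure D1:**
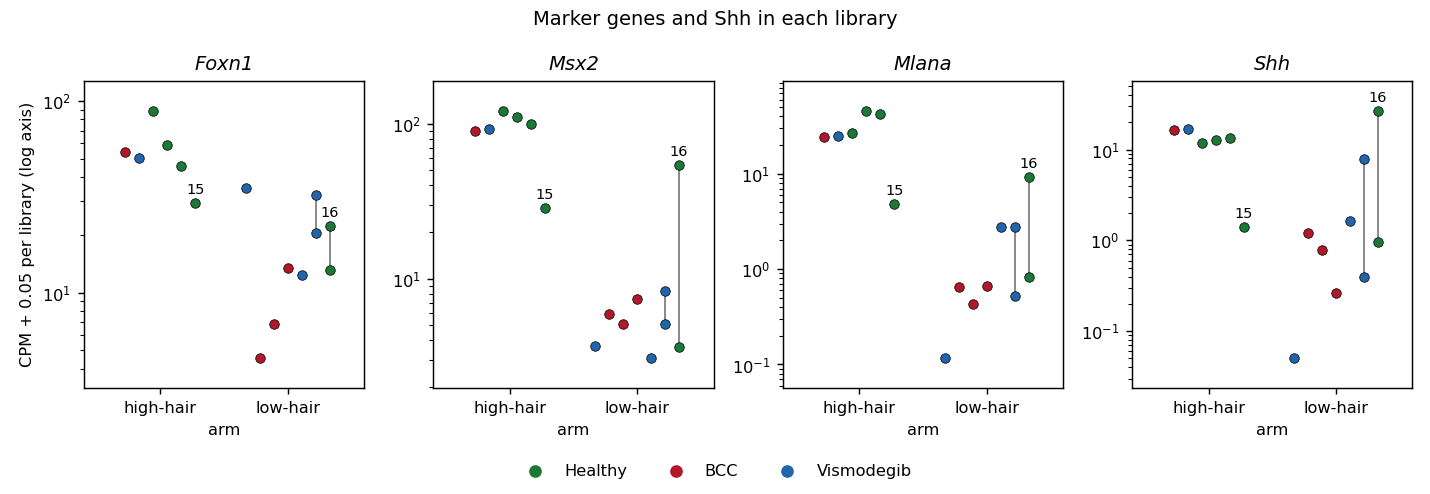
CPM plus 0.05 on a log axis for the 3 marker genes and Shh in each library, by arm, with grey lines joining libraries of the same mouse and numbers marking mice 15 and 16. Mouse 15 is the lowest high-hair point in all 4 panels, and the upper library of mouse 16 is the highest low-hair point for Msx2, Mlana and Shh.

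The hair and pigment genes, which made the division, are described here without a test. All 24 keratins of the hair shaft and sheath that were measured well enough stood higher in the high-hair arm, with a median log2 fold change of 6.07, and none overlapped between the arms. The shaft keratin Krt85 was at 156, 856 and 977 CPM (lowest, median and highest) against 1.15, 8.36 and 111. Krt83 was at 120, 327 and 715 CPM against 0.101, 0.348 and 2.42. Of 18 proteins of the hair cortex and inner root sheath 17 were higher (median 5.88), among them trichohyalin, Tchh. The 14 matrix transcription factors had a median of 1.92 and the 19 pigment genes one of 3.89. Pigment enzymes overlapped between the arms: tyrosinase, Tyr, was at 4.42, 58.8 and 102 CPM against 0.196, 0.57 and 13.2, with mouse 15 again below mouse 16. Genes of the programme took 1.04% to 6.91% of the counts of a high-hair mouse and 0.0963% to 0.386% of those of a low-hair mouse.

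Promoters of some hair and pigment genes are shown with the positions of 2 short motifs that known regulators can bind. The sequences come from the RefSeq promoter table for GRCm38.p6, which is not the build of the counts, and give the 150 bases before the start of the gene on its own strand. The motif CATGTG is a form of the E-box CANNTG that the pigment cell factor Mitf binds. It was found on either strand within 250 bases in 8 of the 13 pigment genes with an entry (61.5%; 19 genes in the list) and in 12.2% of 27025 promoters. Tyr and Tyrp1 encode enzymes of melanin synthesis and Slc24a5 an ion exchanger of the pigment granule, with the motif in capitals. Tyr lies at chr7:87493513-87493662 on the minus strand, Tyrp1 at chr4:80834063-80834212 on the plus strand and Slc24a5 at chr2:125067977-125068126 on the plus strand.
Tyr: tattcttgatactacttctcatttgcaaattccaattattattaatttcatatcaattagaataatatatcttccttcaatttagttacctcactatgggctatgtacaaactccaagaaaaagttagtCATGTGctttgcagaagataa
Tyrp1: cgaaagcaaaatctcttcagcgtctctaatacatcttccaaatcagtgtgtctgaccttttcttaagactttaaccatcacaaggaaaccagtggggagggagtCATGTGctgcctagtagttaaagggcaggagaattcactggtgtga
Slc24a5: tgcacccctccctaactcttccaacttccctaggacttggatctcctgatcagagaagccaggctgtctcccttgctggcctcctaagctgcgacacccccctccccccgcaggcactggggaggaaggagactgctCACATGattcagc
The match begins 21 bases before the start in Tyr, 46 in Tyrp1 and 13 in Slc24a5, where it reads on the other strand. Tyrp1 was at 14.3, 241 and 379 CPM in the high-hair and 2.09, 3.64 and 56.5 in the low-hair mice, and Slc24a5 at 3.83, 42.7 and 72.5 against 0.0982, 0.538 and 9.54. Both genes thus followed Tyr mouse by mouse at the extremes, with mouse 15 lowest in the high-hair and mouse 16 highest in the low-hair arm.

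The motif CTTTGA, the core that LEF and TCF factors bind, was searched in the same way and does not overlap CATGTG. It was found in 6 of 17 hair keratin promoters (35.3%; 24 genes in the list) and in 14% of all. A pair of shaft keratins, Krt34 and Krt39, and the sheath keratin Krt28 hold it in the bases shown. They lie at chr11:100041555-100041704, chr11:99521339-99521488 and chr11:99374904-99375053, all on the minus strand.
Krt34: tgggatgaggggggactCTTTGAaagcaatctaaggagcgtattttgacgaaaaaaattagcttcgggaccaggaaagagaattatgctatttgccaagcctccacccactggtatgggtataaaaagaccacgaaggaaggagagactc
Krt39: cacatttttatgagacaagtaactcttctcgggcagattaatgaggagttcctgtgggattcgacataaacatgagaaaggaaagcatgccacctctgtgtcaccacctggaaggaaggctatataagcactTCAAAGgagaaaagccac
Krt28: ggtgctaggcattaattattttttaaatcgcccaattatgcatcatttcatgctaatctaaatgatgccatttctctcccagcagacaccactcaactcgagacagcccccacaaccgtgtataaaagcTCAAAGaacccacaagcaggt
Krt34 was at 70.1, 163 and 347 CPM in the high-hair and 0, 0.0926 and 1.53 in the low-hair mice, Krt39 at 3.1, 5.95 and 26.5 against 0, 0.101 and 0.19, and Krt28 at 111, 337 and 824 against 2.72, 7.31 and 64.3. A match of letters describes the sequence and does not show that a factor was bound.

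Each gene was compared between the arms with the group (healthy, BCC, vismodegib) as a block in edgeR's quasi-likelihood test. A gene was called at a Benjamini-Hochberg adjusted p under 0.05 over 15150 genes, hair and pigment genes included. Of the 15150 genes, 637 (4.2%) were called, 513 (3.39%) higher and 124 (0.818%) lower in high-hair skin. Without the 127 hair and pigment genes the numbers were 403 of 15023 (2.68%) and 124 (0.825%). Because the arms were drawn from values of the same libraries, these shares describe how far other genes separate along the division, and nothing is read from their size. The arms did not overlap in 415 of the 15150 genes (2.74%), 383 higher (2.53%) and 32 lower (0.211%), again with hair and pigment genes included. Nothing in the labels assigns the mice to the arms. In bulk skin, fewer cells of a type and less RNA per cell cannot be told apart.

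More rises than falls kept their call when mice were left out in turn. Of the 513 higher genes 230 kept their call in all 13 repeats. Outside the hair and pigment genes, which made the arms, 140 of 403 higher genes did, against 0 of the 124 lower genes. Because hair gene levels made the arms, genes that move with the hair programme are favoured to keep their call. The 403 still hold such genes, among them 19 predicted genes or clones that lie among Krtap genes. The contrast of rises and falls is therefore a description. The counts that follow cover all genes tested, hair and pigment genes included. Mouse 6, the sole high-hair vismodegib mouse, left 272 higher genes and 1 lower gene when omitted. Without mouse 3, the sole high-hair BCC mouse, 344 and 5 were called. Without mouse 15 the counts grew to 825 and 907, and without mouse 16 they were 494 and 219. Without both of these healthy mice they were 566 and 348. The libraries of mouse 16 gave 422 and 28 calls when its 128-day library stood alone and 853 and 662 when its 135-day library did. Without mouse 13, 421 and 37 were called, and without mouse 10, 14, 5, 8 or 12 the lower genes numbered between 51 and 80.

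**Figure D2:**
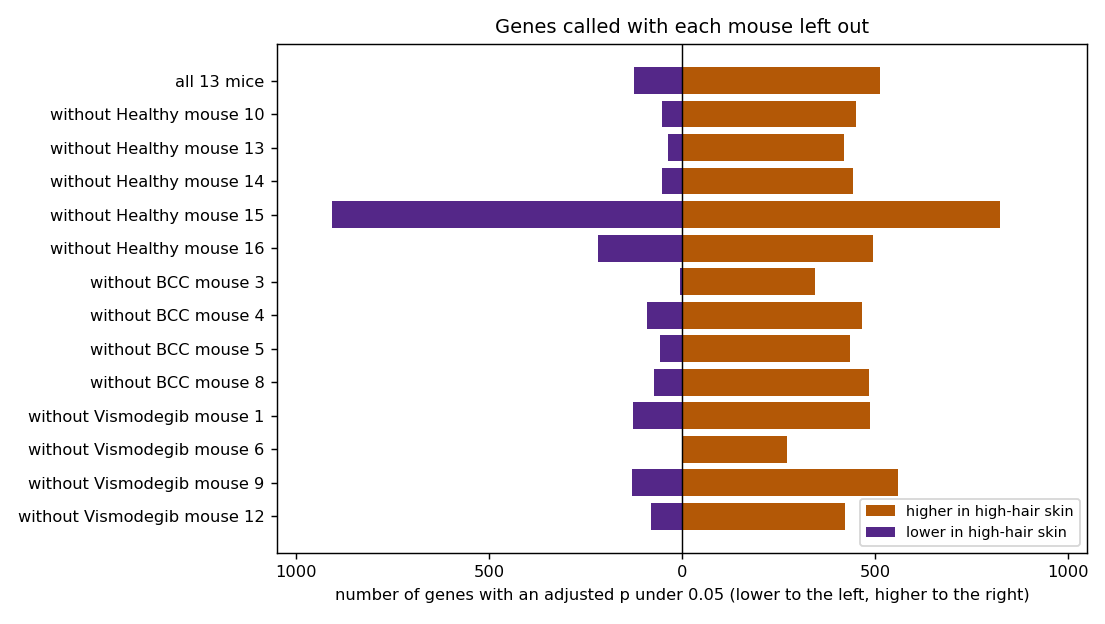
Number of genes with an adjusted p under 0.05, hair and pigment genes included, with all 13 mice and with each mouse left out. Higher genes are bars to the right and lower genes bars to the left. Lower genes range from 1 without mouse 6 to 907 without mouse 15, and higher genes from 272 to 825.

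The 10 largest rises outside the fixed lists were led by genes at or near 0 in low-hair skin. Klk15, a kallikrein protease, had no count in any low-hair mouse and 0.41, 1.13 and 2.46 CPM (lowest, median, highest) in high-hair mice, so it was at least 121-fold higher against a floor of 3 counts over the low-hair arm. Entpd8, an enzyme that breaks down extracellular nucleotides, had 2 counts in the low-hair arm and a ratio of 225, with an exact 95% counting interval of 61.9 to 1868. Such floors and intervals cover counting error alone. Tm4sf4, a tetraspanin-like membrane protein, rose from a highest low-hair value of 0.161 CPM to between 2.55 and 13.4 (log2 fold change 8.07, SE 0.79, adjusted p = 1.91e-05). Crisp1, a cysteine-rich secretory protein, was at 3.54 to 34.2 CPM against 0 to 0.127 (7.46, SE 0.82, adjusted p = 4.57e-05). Crnn, cornulin, of the fused S100 family to which trichohyalin belongs, was at 80.7, 313 and 846 CPM against 0.425, 1.42 and 12.1 (6.63, SE 0.70, adjusted p = 3.24e-05). The channel genes Calhm4 (7.03) and Kcne1 (6.59), the protease inhibitor gene Spink12 (6.32), the casein gene Csn3 (6.13) and the calpain gene Capn8 (5.91) completed the 10. The rule that names these genes asks for arms that do not overlap, so that property is no result. Genes at or near 0 in low-hair skin passed the filter on low counts through the high-hair arm alone. All 10 kept their call with each mouse left out. They were picked as the largest called rises in these same libraries, so this is no separate support.

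Many further rises had symbols of predicted genes or clones, 46 in all. Of these, 19 lie among the hair keratin-associated genes in the GRCm38.p6 gene order, with at least 3 Krtap genes among the 5 genes on either side. How reads of such near copies were divided is not known, so these genes are uncertain.

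The falls were smaller. Of the 124, just 3 named genes outside the lists reached 1 CPM and did not overlap. Kcnd3, a potassium channel gene, fell from a low-hair median of 2.31 CPM to 0.814 (-1.65, SE 0.36, adjusted p = 0.0177), a call lost without mouse 3 or 6 (-1.47 to -1.33). Lce1j of the late cornified envelope was at 2.99, 6.29 and 10.7 CPM against 12, 24.9 and 34.9 (-1.38, SE 0.35, adjusted p = 0.0385). Acadsb, a mitochondrial enzyme of branched-chain amino acid breakdown, was at 20.7, 32.7 and 53.2 CPM against 53.3, 63.4 and 103 (-1.28, SE 0.32, adjusted p = 0.0366). The call of Lce1j was lost without any of mice 1, 3, 5, 6, 8, 10, 12, 13, 14 and 16 (-1.47 to -1.29), and that of Acadsb without mouse 3, 4, 6, 10, 12 or 13 (-1.29 to -0.96).

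**Figure D3:**
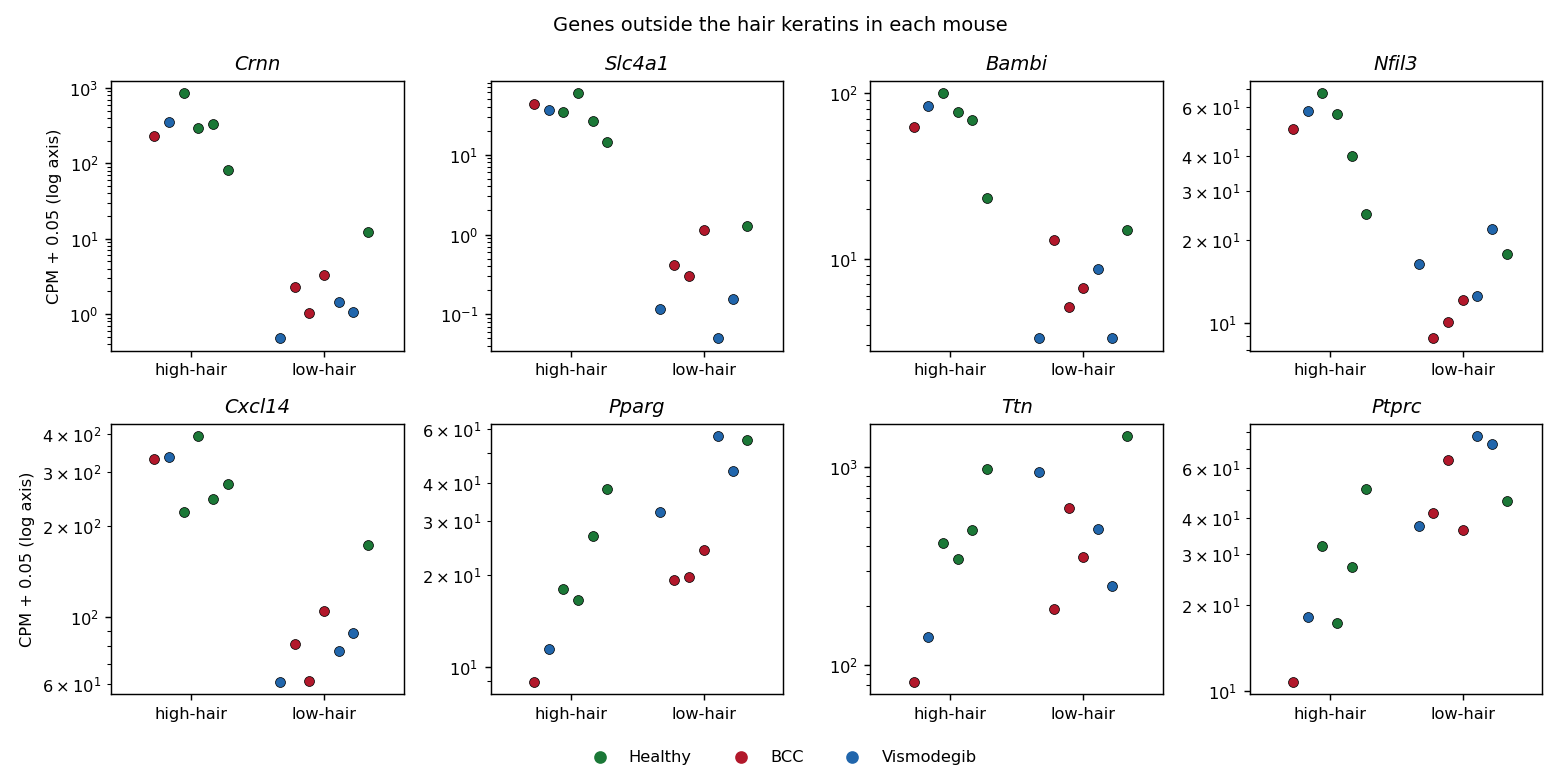
CPM plus 0.05 on a log axis for 8 genes in each of the 13 mice, by arm and coloured by group. Crnn, Slc4a1, Bambi, Nfil3 and Cxcl14 are higher in all high-hair mice than in any low-hair mouse, while Pparg, Ttn and Ptprc overlap.

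The dermal papilla is the mesenchymal cluster that instructs the matrix. Among signals of the follicle and of this cluster, 2 of 34 genes rose and 0 fell. Calls in edgeR, here and in the lists below, are to be read against 3.39% higher and 0.818% lower over all genes. The median log2 fold change was 0.16, beside -0.07 over all genes tested, with 18 genes positive and 16 negative. At an unadjusted p under 0.05, 10 were higher and 10 lower, against 11% and 14% over all genes. Wnt11, a Wnt ligand, rose from 2.73, 7.53 and 18.5 CPM in low-hair to 20.2, 54 and 62.1 in high-hair mice (2.47, SE 0.37, adjusted p = 0.000768) and kept its call with each mouse left out. Wnt5a, another ligand, was at 33.4, 84.3 and 104 CPM against 17.2, 30.8 and 56.5 (1.22, SE 0.32, adjusted p = 0.0484), and its call ended without any mouse other than 4, 15 and 16 (0.80 to 1.37). Fgf5, the growth factor known for ending hair growth, was at 10, 25.2 and 39.2 CPM against 0.202, 1.39 and 74.8 and missed the threshold (4.35, SE 1.17, adjusted p = 0.0521). It was called without mouse 3 (5.17), 4 (4.46) or 15 (4.47), and without mouse 6 the value was 1.77 (adjusted p = 0.619). Its highest value of all was in low-hair BCC mouse 4. Shh missed as well (2.07, SE 0.89, adjusted p = 0.173), was called without mouse 16 (3.87, adjusted p = 0.0388) and was at 1.12 without mouse 3 (adjusted p = 0.66).

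Among targets and feedback genes of Wnt signalling 3 of the 15 genes outside the hair programme rose and 0 fell. The list also holds Lef1, which is described without a test, and its median over all 16 genes was 0.51. Bambi, a decoy receptor that both the Wnt and the BMP list hold, was at 23, 72.4 and 99.3 CPM against 3.26, 6.58 and 14.8 (3.03, SE 0.43, adjusted p = 0.000532). Nkd2, a Wnt inhibitor, was at 59.3, 108 and 133 CPM against 11, 22.1 and 48.8 (2.05, SE 0.30, adjusted p = 0.000691). Neither gene overlapped between the arms, and both kept their calls with each mouse left out. Lef1, which also counts among the hair matrix factors, was at 14.1, 66.2 and 76.6 CPM against 2.99, 5.51 and 25. The receptor gene Fzd10, named after its values were seen, rose by 1.14 (SE 0.29, adjusted p = 0.0395), a call lost without mouse 3, 4, 5, 6, 10, 12, 13 or 14 (0.69 to 1.25). The mean level of the list was lowest in mouse 15 among high-hair mice (4.71) and highest in mouse 16 among low-hair mice (4.82).

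In the BMP list 4 of 11 genes rose and 0 fell (median 0.27), Bambi among them, beside 3.39% higher and 0.818% lower over all genes. Smad6, an inhibitor that BMP signalling switches on, was at 11.1, 24 and 39.3 CPM against 3.34, 5.65 and 10.4 (1.80, SE 0.32, adjusted p = 0.00382), a call lost without mouse 3 or 6 (1.66 to 1.68). Id3, a classical BMP target, rose by 1.12 (SE 0.26, adjusted p = 0.0234), and this was lost without the same mice (0.82 to 1.03). Smad7, another inhibitory Smad and named after its values were seen, rose by 1.23 (SE 0.30, adjusted p = 0.0325) and lost its call without mouse 3, 4, 5, 6, 13 or 16 (1.19 to 1.33). The mean levels of the BMP list did not overlap, with 4.39 to 5.02 in high-hair and 3.83 to 4.22 in low-hair mice.

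The Hedgehog list and the bulge list held no call in edgeR. Over all genes tested 25% had an unadjusted p under 0.05 (11% higher and 14% lower), DESeq2 called 5.83% higher and 8.08% lower, and limma voom 3.26% and 1.52%. Counts of list members at these thresholds, here and below, are to be read against these shares. For the Hedgehog pathway, 5 of 17 genes were higher and 1 lower at an unadjusted p under 0.05, DESeq2 called 1 higher and limma voom 0, and the median was 0.40. Gli1, the target most used to read the pathway, was at 40.3, 103 and 306 CPM against 21.3, 119 and 320 (0.41, SE 0.37, adjusted p = 0.49). Its level followed the group more than the arm. In BCC skin high-hair mouse 3 had 306 CPM and the low-hair mice 255 to 320, and in vismodegib skin high-hair mouse 6 had 103 and the low-hair mice 21.3 to 58.8. For the resting follicle and bulge stem cells, 4 of 25 genes were higher and 2 lower at an unadjusted p under 0.05, and DESeq2 called 2 and 2 and limma voom 0 and 1. Their median was 0.29, and the bulge keratin Krt24 stood at -1.08 (SE 0.30, adjusted p = 0.0555).

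**Figure D4:**
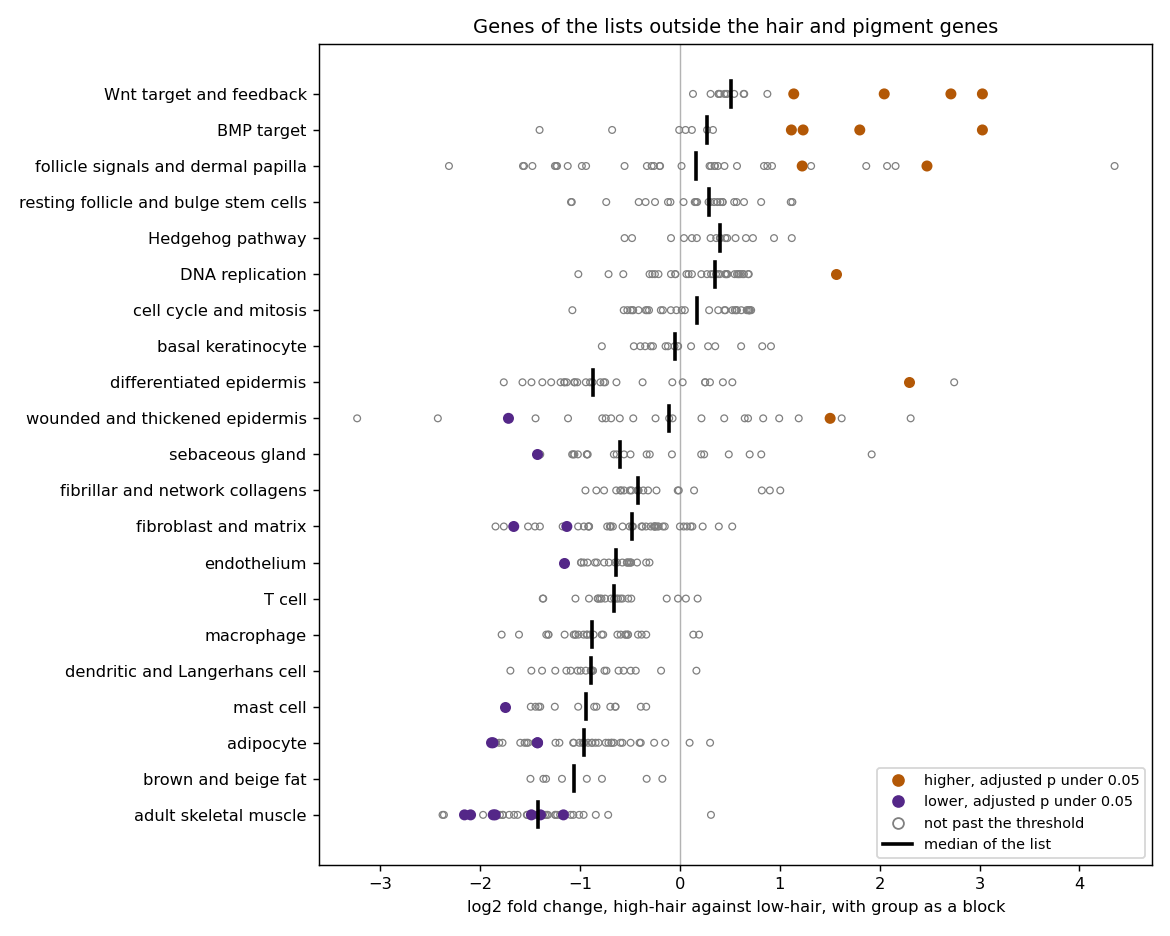
Log2 fold change of high-hair against low-hair skin for each gene of 21 lists (points), with called genes filled and the list median as a black bar. Called genes of the Wnt and BMP lists lie to the right of 0 and those of the fat and muscle lists to the left. The filled points of the Wnt list include Lef1, a gene of the hair programme that made the arms. Its point is a description and no test result.

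Fat genes stood lower in high-hair skin once the group was taken into account. Of 40 adipocyte genes 4 fell and 0 rose, beside 0.818% lower and 3.39% higher over all genes. The median log2 fold change was -0.96, and 38 of the 40 were negative. Pparg, the master factor of fat cells, which the sebaceous gland also uses, was at 8.91, 17.3 and 38 CPM in high-hair and 19.2, 32.1 and 56.5 in low-hair mice (-1.42, SE 0.28, adjusted p = 0.00894), and its call ended without mouse 6 (-1.16). The carbonic anhydrase gene Car3 (-1.87, SE 0.46, adjusted p = 0.0329), the fatty acid transporter gene Cd36 (-1.88, SE 0.47, adjusted p = 0.0398) and the growth hormone receptor gene Ghr (-1.42, SE 0.38, adjusted p = 0.0496) also fell. Car3 was at 105, 552 and 2155 CPM against 403, 762 and 2726, so the arms overlapped widely. Its call ended without mouse 3, 5, 6, 12, 13 or 16 (-2.17 to -1.56), that of Cd36 without mouse 3, 6, 10, 13 or 14 (-1.91 to -1.54) and that of Ghr without any mouse other than 1, 15 and 16 (-1.45 to -1.05).

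The hormones adiponectin and leptin and the lipid droplet protein perilipin did not pass. Adipoq was at 36.8, 129 and 356 CPM against 40.6, 155 and 502 (-1.52, SE 0.54, adjusted p = 0.119), Lep had -1.84 (SE 0.55, adjusted p = 0.075) and Plin1 -1.24 (SE 0.48, adjusted p = 0.139). Healthy mice 15 and 16 held the most Plin1, with 111 and 180 CPM, each the highest of its arm. Preadipocyte genes had a median of -0.77 with 2 of 14 lower, Pparg and the precursor factor Ebf2 (-1.51, SE 0.37, adjusted p = 0.0332), whose call ended without mouse 3, 6, 10, 12, 13 or 16 (-1.80 to -1.11). Of 8 brown and beige fat genes 5 were lower at an unadjusted p under 0.05 and none was called in edgeR, against 4 in DESeq2 and 1 in limma voom. Without mouse 6 none of the 40 adipocyte genes was called, without mouse 3 or 13 just 1, without mouse 5, 10, 12 or 14 2, and without mouse 15 the number was 14. Without the group block the median of the list was -0.25 and 0 members were called. Within each group, as the difference of means, it was -1.21 in healthy, -0.84 in BCC and -0.89 in vismodegib skin.

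Adult skeletal muscle genes moved with the fat genes, and muscle lies directly under the dermal fat of mouse skin. Of 40 genes 7 fell and 0 rose, beside 0.818% lower and 3.39% higher over all genes. The median was -1.42, and 38 were lower at an unadjusted p under 0.05, against 14% over all genes. The giant sarcomere proteins Neb, nebulin (-2.09, SE 0.53, adjusted p = 0.0399), and Ttn, titin (-1.87, SE 0.47, adjusted p = 0.0404), fell, as did the myosin light chain gene Myl1 (-1.85, SE 0.47, adjusted p = 0.0417). Ttn was at 82.7, 380 and 982 CPM in high-hair and 193, 489 and 1428 in low-hair mice, with mouse 15 the highest of the former and mouse 16 of the latter. The other falls were Xirp2 (-2.15), Cox6a2 (-1.48), Jph1 (-1.39) and Myoz1 (-1.16). All 7 calls ended without any of mice 3, 5, 6, 10, 13 and 14. Over the mice whose omission ended a call, the values were -2.09 to -1.73 for Neb (mouse 9 too), -2.12 to -1.68 for Ttn (8 and 16 too) and -2.06 to -1.69 for Myl1 (1, 4, 8 and 16 too). They were -2.48 to -1.71 for Xirp2 (9 and 16 too), -1.54 to -1.39 for Cox6a2 and -1.50 to -1.20 for Jph1 (1, 4, 8 and 16 too for both), and -1.26 to -1.04 for Myoz1 (1, 4, 8, 9 and 16 too). Acta1, the actin of adult muscle, was at 521, 1747 and 7553 CPM against 480, 969 and 9436 and did not pass (-1.35, SE 0.58, adjusted p = 0.175). Without mouse 15, 31 of the 40 genes were called lower and without mouse 12, 16, against 4 without mouse 9, 3 without mouse 1, 2 without mouse 8 and 1 without mouse 16. Without the group block 1 was called, with a median of -0.40. The part of fat and muscle content in the changes of other genes was not tested.

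In the list of forming skeletal muscle 7 of 17 genes were too low to test, Myh3 and Actc1 among them. Of the other 10, the slow troponin gene Tnni1 rose from a median of 0.285 to 1.78 CPM (1.95, SE 0.50, adjusted p = 0.0449), opposite to the list's median of -1.57. This call ended without any mouse other than 1, 15 and 16 (1.35 to 2.01). The regulator Myog was at -2.26 (SE 0.69, adjusted p = 0.0793).

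**Figure D5:**
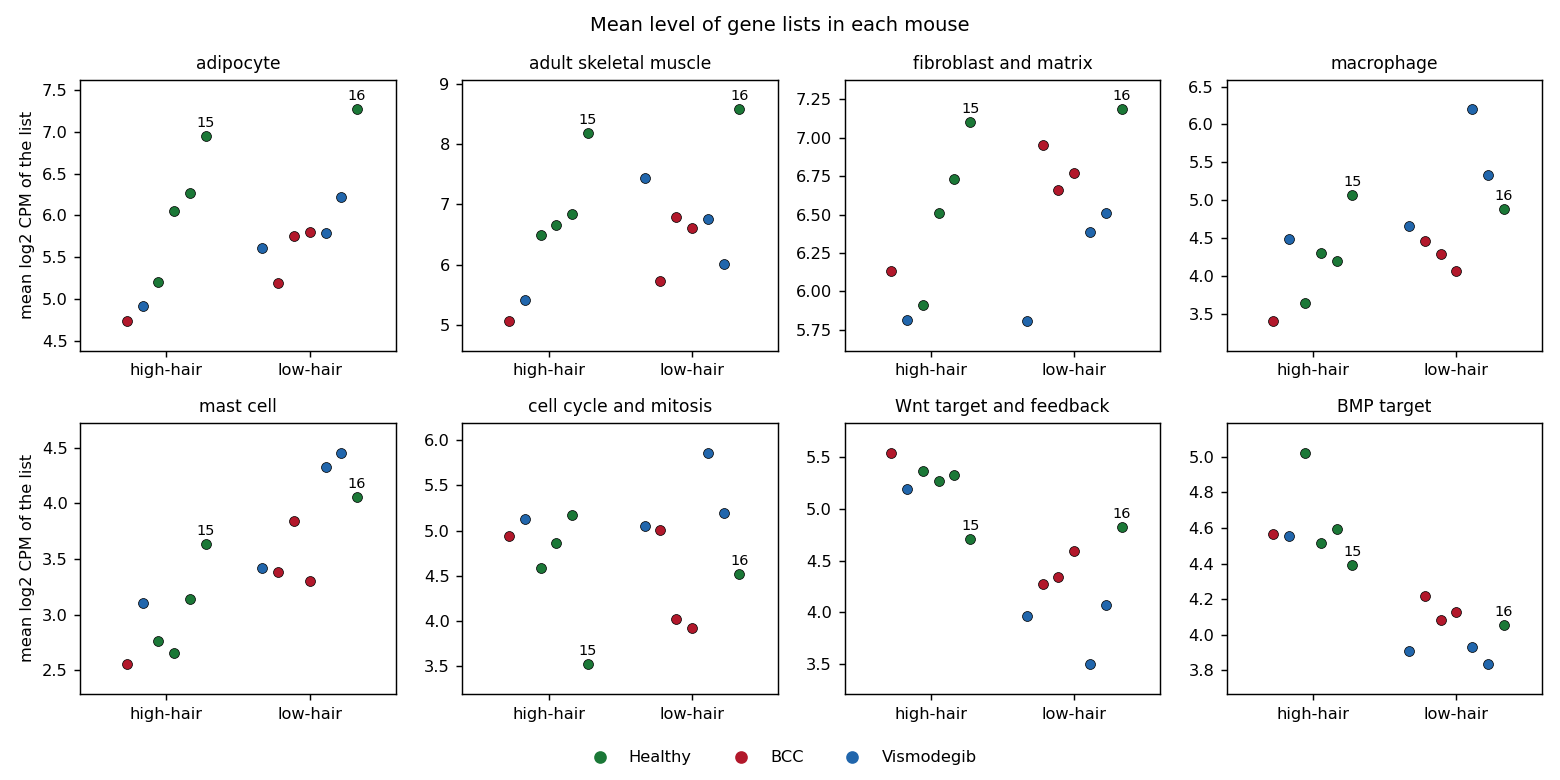
Mean log2 CPM of 8 gene lists in each mouse, by arm and coloured by group, with mice 15 and 16 numbered. For the adipocyte, muscle and fibroblast lists mouse 15 is the highest of the high-hair and mouse 16 of the low-hair arm, and the BMP list is the sole one shown whose arms do not overlap.

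Fibroblast and matrix genes leaned lower, with a median of -0.48 over 43 genes. Of these 2 fell and 0 rose, beside 0.818% lower and 3.39% higher over all genes. Prrx1, a transcription factor of dermal fibroblasts, was at 26.1, 49 and 115 CPM against 52.2, 133 and 188 (-1.66, SE 0.42, adjusted p = 0.0395). Efemp1, a fibulin of elastic fibres, was at 23.5, 57.5 and 104 CPM against 59.5, 81.7 and 132 (-1.13, SE 0.28, adjusted p = 0.0362). The arms overlapped in both, and the calls ended without mouse 3, 5, 6, 10, 12 or 13 (Efemp1, -1.19 to -0.85) and without these or mouse 9 or 14 (Prrx1, -1.69 to -1.28). No collagen gene was called in edgeR: of 21, 3 were higher and 2 lower at an unadjusted p under 0.05, DESeq2 called 2 and 2, and limma voom 0 and 1. Col1a1, the main collagen of dermis, was at 481, 1694 and 1884 CPM against 293, 1131 and 6280 (-0.41, SE 0.50, adjusted p = 0.611). Its highest values were those of low-hair BCC mice 4 and 8, and its lowest those of low-hair vismodegib mice 1 and 9.

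Among matrix proteases and inhibitors 1 of 22 fell. Adamts4, an enzyme that cleaves proteoglycans, was at 2.46, 5.39 and 9.58 CPM against 12.5, 19.9 and 55.6 without overlap (-1.50, SE 0.35, adjusted p = 0.0258), and its call ended without mouse 3, 6 or 16 (-1.75 to -1.36). All 22 endothelial genes were negative, with a median of -0.64, but 1 fell, the vascular phosphatase gene Ptprb (-1.16, SE 0.28, adjusted p = 0.0312; without mouse 3, 6, 10, 13 or 14, -1.16 to -0.96 and no call). Vegfa, the vessel growth factor, did not overlap, with 34.9, 50.5 and 58.1 CPM against 67.1, 77.9 and 171, and missed the threshold (-0.85, SE 0.26, adjusted p = 0.0763). In the list of smooth muscle and pericytes the pericyte gene Rgs5 fell (-1.12, SE 0.27, adjusted p = 0.034), and this was lost without mouse 3, 5, 6, 10, 13 or 14 (-1.12 to -0.92).

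Immune cell lists leaned lower in high-hair skin with few calls. Counts at an unadjusted p under 0.05 stand against 14% lower over all genes. Ptprc, the pan-leukocyte protein CD45, was at 10.7, 22.5 and 50.7 CPM in high-hair and 36.3, 46 and 77.1 in low-hair mice and missed the threshold (-1.50, SE 0.41, adjusted p = 0.0533). Mouse 15 was the only high-hair mouse within the low-hair range. Macrophage genes had a median of -0.88 over 28 genes with 0 called in edgeR, 11 lower at an unadjusted p under 0.05, 7 lower in DESeq2 and 3 in limma voom. The mannose receptor gene Mrc1 was at 17, 59.6 and 115 CPM against 57.5, 101 and 331 (-1.31, SE 0.36, adjusted p = 0.0561). Dendritic and Langerhans cell genes had the same median over 21 genes, with 13 lower at an unadjusted p under 0.05, 8 in DESeq2 and 0 in limma voom. T cell genes had a median of -0.66 over 21 genes, with 8 lower at an unadjusted p under 0.05, 4 in DESeq2 and 1 in limma voom. Cytotoxic and NK cell genes stood at -0.90 over 10 genes and B and plasma cell genes at -0.65 over 6, with 0 calls in edgeR or limma voom, 5 and 0 lower at an unadjusted p under 0.05, and 4 and 0 lower in DESeq2.

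Mast cell genes were all negative, 14 of 14, with a median of -0.94. Ms4a2, a chain of the receptor for immunoglobulin E, fell from 4.91, 9.52 and 12.7 to 1.54, 3.21 and 5.3 CPM (-1.74, SE 0.43, adjusted p = 0.0354), and its call ended without mouse 3, 4, 5, 6, 12 or 14 (-1.74 to -1.42). The mast cell protease gene Cpa3 missed the threshold (-1.49, SE 0.41, adjusted p = 0.0575). In the regulatory and checkpoint list Entpd1, the ectonucleotidase CD39, fell without overlap, from 47.2, 64.6 and 71.2 to 24.7, 31.1 and 43.9 CPM (-0.81, SE 0.19, adjusted p = 0.0295), a call lost without mouse 3, 6, 8, 10, 12, 13, 14 or 16 (-0.92 to -0.69). It was the only call among 19 genes.

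All 11 neutrophil genes tested were negative (median -1.0), and this median was -0.29 without mouse 6 and -0.61 without mouse 9. Within the groups the median difference was -0.12 in healthy, -0.94 in BCC and -1.67 in vismodegib skin. S100a8, an alarmin of neutrophils and of wounded epidermis, was at 1103 CPM in high-hair mouse 6 and between 1726 and 22180 in the low-hair vismodegib mice, but at no more than 66.1 in any healthy or BCC mouse. Of 11 neutrophil genes 0 were called in edgeR, 2 were lower at an unadjusted p under 0.05, DESeq2 called 1 lower and limma voom 0. In the cytokine list Cxcl14, a chemokine of skin epithelium, rose from 61, 81.1 and 172 to 221, 304 and 393 CPM without overlap (1.59, SE 0.26, adjusted p = 0.0018) and kept its call with each mouse left out. Il33, an epithelial alarm cytokine, fell (-1.53, SE 0.35, adjusted p = 0.023; no call without mouse 3 or 6, -1.62 to -1.21). The complement gene C3 fell (-1.20, SE 0.31, adjusted p = 0.0422) and lost its call without any mouse other than 4, 9 and 15 (-1.37 to -1.07). Of 31 interferon-stimulated genes the factor gene Irf7 rose (0.88, SE 0.21, adjusted p = 0.0271), against a list median of -0.16, and lost its call without mouse 3, 6 or 13 (0.84 to 0.86).

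Proliferation genes did not separate the arms. Of 32 genes of cell cycle and mitosis 0 were called in edgeR, with 18 positive and 14 negative, a median of 0.17, 1 lower at an unadjusted p under 0.05, 1 lower in DESeq2 and 0 calls in limma voom. Mki67, the usual marker of dividing cells, was at 36.6, 86.9 and 137 CPM against 57.1, 121 and 501 (-0.47, SE 0.60, adjusted p = 0.635). The value of 501 was that of vismodegib mouse 9, and mouse 15 was the lowest of all 13 mice. Of 34 DNA replication genes 1 rose, E2f2, a factor that starts the S phase programme, at 26.2, 69.6 and 92.8 CPM against 16.6, 20.5 and 31.1 (1.56, SE 0.29, adjusted p = 0.00559), a call lost without mouse 3 (1.21). The helicase gene Mcm7 (0.59, SE 0.24, adjusted p = 0.148) and the mitotic factor gene Foxm1 (0.67, SE 0.32, adjusted p = 0.212) missed the threshold. The spindle checkpoint kinase gene Ttk pointed the other way without overlap (-1.08, SE 0.35, adjusted p = 0.0904). Of 15 cell cycle inhibitors 0 were called in edgeR or limma voom, 4 were higher at an unadjusted p under 0.05 and DESeq2 called 1 higher. When mouse 16 was represented by its 135-day library, the median of the cell cycle list was 0.64 with 1 gene higher, and with its 128-day library it was -0.06 with none.

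In the epidermis, basal keratinocyte genes had a median of -0.05 over 17 genes, with 2 higher and 1 lower at an unadjusted p under 0.05 and 0 called in edgeR or limma voom, against 1 higher in DESeq2. Differentiated epidermis stood at -0.87 over 29 genes, 8 of them positive and 21 negative. At an unadjusted p under 0.05, 3 were higher and 11 lower, and the 1 call of the list was a rise. Krt2, a keratin of the upper epidermis, was at 0.947, 3.06 and 3.75 CPM against 0.253, 0.622 and 1.14 (2.30, SE 0.45, adjusted p = 0.00813; no call without mouse 3 or 6, 2.26 to 2.31). Tgm3, the transglutaminase of hair and cornified envelope, was at 23 to 164 CPM in healthy and BCC high-hair mice against 3.81 to 16.3 in their low-hair counterparts. In vismodegib skin it was at 224 CPM in mouse 6 and 257 to 375 in the low-hair mice, and it missed the threshold (2.75, SE 0.81, adjusted p = 0.0711).

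Genes of wounded and thickened epidermis held a rise and a fall among 23. Tgfa, a ligand of the epidermal growth factor receptor, was at 49.8, 103 and 171 CPM against 20, 40.1 and 122 (1.50, SE 0.37, adjusted p = 0.0326; no call without mouse 3, 4, 5, 6, 12, 13, 14 or 16, 1.33 to 1.82). Sprr2d of the cornified envelope fell (-1.71, SE 0.38, adjusted p = 0.0205; no call without mouse 3 or 6, -1.58 to -1.53). Its level was set mainly by the group, at 0.178 to 0.817 CPM in healthy, 2.76 to 13.5 in BCC and 357 to 1729 in vismodegib mice. Of 22 sebaceous gland genes Pparg was the sole call, and the list had a median of -0.59. This median was -0.12 without mouse 6. Within the groups the median difference was -0.17 in healthy, -0.13 in BCC and -1.49 in vismodegib skin.

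Some single genes of other lists stood out. Slc4a1, the anion exchanger of red cells, rose from 0, 0.253 and 1.23 to 14.3, 35.2 and 58.6 CPM (6.27, SE 0.64, adjusted p = 2.51e-05) without overlap. Near 0 in low-hair skin, it passed the filter on low counts through the high-hair arm, like the largest rises. Slc4a1 kept its call with each mouse left out. It was named for its small p in these same libraries, so this is no separate support. No other of the 5 erythroid genes tested was called. Bpgm, an enzyme that sets the oxygen affinity of haemoglobin, was at 32.2, 42.9 and 50.5 CPM against 16.3, 20.4 and 36.4 (0.73, SE 0.23, adjusted p = 0.0855). Alas2, which starts heme synthesis in red cells, was at 4.07, 6.31 and 9.63 CPM against 1.73, 4.28 and 7.14 (0.52, SE 0.43, adjusted p = 0.443), and the globin genes Hba-a1 and Hba-a2 stood at 0.17 and -0.20. Nfil3, a repressor within the circadian clock network, rose from 8.74, 12.4 and 21.8 to 24.7, 53.6 and 67.4 CPM (1.82, SE 0.27, adjusted p = 0.000691) and kept its call with each mouse left out, while the clock list had a median of -0.43 over 18 genes. The sodium channel gene Scn7a of Schwann cells fell (-1.61, SE 0.41, adjusted p = 0.0423; no call without mouse 3, 5, 6, 8, 9, 10, 12 or 13, -1.59 to -1.19). The p53 target Ccng1 fell (-1.50, SE 0.38, adjusted p = 0.0396; no call without mouse 3, 4, 5, 6, 10, 13 or 14, -1.51 to -1.22), against a median of 0.23 for the p53 list.

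Whether the difference between the arms depended on the group was tested by an interaction. No gene passed an adjusted p of 0.05, and 378 of 15150 (2.5%) had an unadjusted p under 0.05. Each group has a single mouse in 1 of its arms, mouse 16 in healthy, mouse 3 in BCC and mouse 6 in vismodegib skin, which limits this test. Bambi, as a difference of mean log2 CPM, was higher by 1.99 in healthy, 3.04 in BCC and 4.19 in vismodegib skin. Slc4a1 was higher by 4.55, 6.43 and 9.04 in the same order. Pparg was lower in each, at -1.23, -1.22 and -1.91, and so was Ttn, at -1.49, -2.07 and -1.81. In all 4 genes the direction was the same in the 3 groups, but they were picked from called genes, which favours this. Tgm3, which was not called, was at 4.31, 3.16 and -0.50 in the same order.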

How the data were processed

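RNA of whole mouse skin was sequenced from poly-A selected, strand-specific libraries. The authors deposited expected counts per gene, made with Bowtie2 and RSEM on GRCm39 per the submitters' processing notes (versions and strand setting not given in the sources used here). Of these values 3.42% were not whole. They were rounded, and the libraries of mice 12 and 16 were summed, since the replicate is the mouse.

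Genes were kept with filterByExpr (15150 of 18521), scaled by TMM and tested in edgeR 4.0.16 (R 4.3.3; robust quasi-likelihood, group plus arm, 9 residual degrees of freedom), with Benjamini-Hochberg adjustment at 0.05. CPM use TMM-scaled library sizes, and list levels are means of log2 CPM with a prior count of 1. SE is the absolute log2 fold change over the square root of F. limma 3.58.1 (voom) and DESeq2 1.42.0 were alternatives.

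The members and the 44 gene lists were chosen with earlier results of these data known. Named by rule were, per list, the 3 smallest p-values, and outside the lists the 10 largest non-overlapping changes in each direction of at least 1 CPM. Other genes named were chosen after their values were seen. Hair and pigment genes were part of the fit and of the adjustment, but their levels are given without a test result.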

Additional observations from a re-analysis of the deposited data

Results flagged for a closer look

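Within each arm, 94 combinations of arm and gene list or marker were searched for a mouse that stood apart from the others, and 12 were found. The threshold is set for about 1 in 20 by chance in independent sets of like mice. That rate does not apply here. The lists share genes and mice, the group was not taken into account, and the hair and pigment items made the arms. The 12 are therefore not read as an excess over chance. Values are mean log2 CPM of a list or log2 CPM of a gene.

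Healthy mouse 15 stood apart from the other high-hair mice in 6 of them. It was low in the hair matrix factors (4.85 against 6.05 to 6.42), the pigment genes (3.15 against 5.49 to 6.06), the genes of cell cycle and mitosis (3.52 against 4.59 to 5.17), Msx2 (4.84 against 6.48 to 6.87) and Mlana (2.25 against 4.58 to 5.51). It was high in endothelium (4.16 against 3.14 to 3.49). Healthy mouse 16 was high in Msx2 among the low-hair mice (4.90 against 1.59 to 2.89).

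Healthy mouse 14 was high in follicle and dermal papilla signals (3.82 against 3.00 to 3.29) and in immediate early and heat shock genes (6.44 against 5.89 to 6.07). Healthy mouse 10 was high in BMP targets (5.02 against 4.39 to 4.59). Vismodegib mouse 6 was high in neutrophil genes (3.64 against -0.70 to 0.19) and in genes of wounded and thickened epidermis (7.21 against 2.25 to 4.09), and it is the sole vismodegib mouse of its arm.

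In 3 lists the arms lay apart in opposite directions in different groups, and this difference was not tested. High-hair minus low-hair, wounded and thickened epidermis was at 1.06 in healthy and -0.74 in vismodegib skin. Cholesterol synthesis was at -0.22 in healthy, 0.33 in BCC and -0.68 in vismodegib skin. p53 and its targets were at -0.13 in healthy and 0.29 in BCC skin. In each of these groups 1 arm is a single mouse.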

How the results depend on the processing

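With 513 higher and 124 lower genes as reported, DESeq2 called 883 and 1224, limma voom 494 and 230, the 15 libraries as replicates 738 and 391, age as a covariate 452 and 62, and the hair keratin level as a predictor 1084 and 1245. Healthy mice alone gave 0 and 0 (705 at an unadjusted p under 0.05), BCC mice 329 and 167, and vismodegib mice 143 and 0. Leaving out each mouse gave 272 to 825 higher and 1 to 907 lower genes. Chosen after seeing the data, the 128-day library of mouse 16 gave 422 and 28, its 135-day library 853 and 662, and omission of mice 15 and 16 566 and 348. Other scalings and filters gave 468 to 602 and 84 to 128. The cause of these differences was not tested.

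Of 12 pairs of mice with the same replicate number 5 had a correlation of deviations over 0.1 (range -0.63 to 0.68 over 1000 genes). The deviations were taken from group means with the arm left in. They therefore cannot show whether replicate numbers pair the mice. With the replicate block 245 and 20 genes were called, and the medians were -0.41 for adipocyte and -0.093 for fibroblast and matrix genes. Of the 53 called genes followed, 37 lost their call under this block.

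Without the group block the medians were -0.25 for adipocyte and -0.40 for adult skeletal muscle genes, and Gli1 was at -0.31. In healthy mice alone Gli1 was at -0.38, Mki67 at 0.59 and Shh at -0.54. Fgf5 was at -0.71 in BCC and Col1a1 at 0.41 in vismodegib mice alone. Leaving out each mouse, Gli1 ranged from -0.15 to 0.91 and Mki67 from -0.96 to 0.16. Gli1, Mki67 and Col1a1 were called in no setting tried, while Fgf5 was called in 10 and Shh in 4. Of the 53 called genes, 0 changed direction in any alternative, and 36 lost their call without mouse 3 and 36 without mouse 6. These genes were picked as called in the same mice, which favours an unchanged direction. Library size alone ended 15 calls.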

Other observations

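The labels give a pair of libraries each to mice 12 and 16, and their values are set side by side without a test. In mouse 16 the library with more hair keratin RNA (mean log2 CPM 3.30 against -1.09) held less fat (6.88 against 7.56), muscle (7.83 against 9.07) and macrophage RNA (4.51 against 5.17), and more RNA of cell cycle and mitosis genes (5.13 against 3.14). Its labels give 128 days to the former and 135 days to the latter library, so they may come from different mice. In mouse 12 the library with more hair keratin RNA (0.14 against -1.91) held less muscle RNA (5.82 against 6.20) and more of the cell cycle list (5.49 against 4.83). Its adipocyte list was at 6.19 against 6.24, and its macrophage list went the other way, at 5.42 against 5.25.

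Further lists held no call in edgeR. Over all genes 11% were higher and 14% lower at an unadjusted p under 0.05. Lymphatic endothelium had a median log2 fold change of -0.85, with 7 of 7 genes negative, 5 lower at an unadjusted p under 0.05, 2 lower in DESeq2 and 1 in limma voom. Cholesterol synthesis stood at -0.12 over 22 genes, with 4 lower at an unadjusted p under 0.05, 1 in DESeq2 and 0 in limma voom. Immediate early and heat shock genes stood at 0.17 over 17, with 3 higher at an unadjusted p under 0.05, 1 in DESeq2 and 0 in limma voom.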
